A study of Mus musculus with 6 samples.

Results

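S-adenosylmethionine is the methyl donor of the cell, and the 8 genes described here make it, spend it or clear what is left of it. They are Mat1a, Mat2a, Mat2b, Gnmt, Ahcy, Nnmt, Pemt and Gamt, taken by their symbols from the annotation of an Agilent whole-genome mouse array read with 1 dye, Cy3. The array carries 13 probes for them among 41174 probes besides its controls, and 12 of the 13 were bright enough to be tested. The RNA was liver RNA of C57BL/6J males, an inbred mouse strain, put on the diets at 8 weeks of age and 20 weeks old at the end. The 3 CFD diet samples followed 12 weeks on an iron-supplemented diet built from defined L-amino acids, with no choline, no folic acid and 0.17% methionine. The 3 control samples followed the same time on that base with methionine at 0.4%, and with both missing nutrients present, folic acid at 2 mg/kg and choline as 0.3% of its bitartrate salt. The comparison asks how the expression of these enzymes differs after a diet short of all the main sources of methyl groups. Nothing in the labels ties each sample to a mouse of its own, nor says whether animals were pooled. All p-values therefore measure only how these samples vary, and that variation may be technical.

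Methionine adenosyltransferases join methionine and ATP into S-adenosylmethionine. Mat1a encodes the catalytic subunit of the adult hepatocyte, Mat2a that of most other tissues and of growing cells, and Mat2b a regulatory subunit that binds the Mat2a product. Methyltransferases then pass the methyl group on, and each transfer leaves S-adenosylhomocysteine, an inhibitor of these enzymes, which Ahcy splits into homocysteine and adenosine. In liver the large consumers are Gnmt, which methylates glycine and so disposes of surplus methyl groups, Gamt, which completes creatine, and Pemt, which turns phosphatidylethanolamine into phosphatidylcholine and so provides choline when the diet does not. Nnmt methylates nicotinamide for excretion.

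RefSeq promoters (build GRCm38.p6) matched 6 of the 8 genes. The 250 bases upstream of the start of Mat2a are shown because this gene rose, and those of Gnmt, Gamt and Ahcy because these genes fell together on the same arrays. All lie on the minus strand and are written 5′ to 3′ in the direction of the gene. Capitals mark matches, on either strand, to 3 common promoter motifs. The TATA box was searched as TATAAA. The CCAAT box was searched by the letters of its name. The GC box was searched as GGGCGG.
Mat2a, chr6:72439557-72439806: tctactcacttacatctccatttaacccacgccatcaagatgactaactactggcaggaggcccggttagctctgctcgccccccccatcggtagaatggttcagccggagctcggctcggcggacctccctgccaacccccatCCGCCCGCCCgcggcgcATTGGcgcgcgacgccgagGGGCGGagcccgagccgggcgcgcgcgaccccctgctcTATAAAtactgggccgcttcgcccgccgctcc
Gnmt, chr17:46729166-46729415: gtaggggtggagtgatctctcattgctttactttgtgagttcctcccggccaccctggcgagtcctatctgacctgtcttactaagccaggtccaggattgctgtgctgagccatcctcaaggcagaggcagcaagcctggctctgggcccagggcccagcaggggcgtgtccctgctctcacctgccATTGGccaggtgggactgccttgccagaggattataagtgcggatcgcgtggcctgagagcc
Gamt, chr10:80261013-80261262: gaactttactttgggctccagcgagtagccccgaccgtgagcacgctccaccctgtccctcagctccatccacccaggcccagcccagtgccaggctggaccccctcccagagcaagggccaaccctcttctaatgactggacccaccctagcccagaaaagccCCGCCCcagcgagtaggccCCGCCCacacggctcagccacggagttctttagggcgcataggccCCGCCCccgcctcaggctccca
Ahcy, chr2:155074498-155074747: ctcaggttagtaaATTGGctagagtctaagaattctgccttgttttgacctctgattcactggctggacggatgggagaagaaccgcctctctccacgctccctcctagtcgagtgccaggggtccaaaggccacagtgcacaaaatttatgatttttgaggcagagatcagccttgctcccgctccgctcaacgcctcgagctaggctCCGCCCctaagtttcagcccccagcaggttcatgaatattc

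The Mat2a window holds a TATA box 32 to 27 bases before the start, 3 GC boxes, the first 2 of which overlap, and 1 CCAAT box. It is GC-rich (67.6%, against a median of 52.4% over all promoters of this length) and has 29 CG pairs. The Gnmt window has 1 CCAAT box, the Gamt window 3 GC boxes and 12 CG pairs, and the Ahcy window 1 CCAAT box and 1 GC box. The GC content of Gamt (66.8%) is close to that of Mat2a, with Gnmt at 60.4% and Ahcy at 52.8%. Over 32851 promoter windows of this length, 12.4% held the TATA box letters, 33.8% the CCAAT box and 32.7% the GC box. The E-box CACGTG (6.02% of windows) and the C/EBP-ATF response element TGATGNAA (3.45%) were also searched and had no match in these 4 windows. These are matches of letters, and no binding was measured.

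Signals were scaled within each array by dividing by the array's 75th percentile, so a scaled signal of 10 is 10 times that percentile. The percentile itself ran from 365 to 438.8 on the control arrays and from 404.1 to 670.2 on the CFD diet arrays, so scaling lowers the CFD diet values, most on replicates 1 and 3. Signal well above background was found for 21719 to 26320 probes per control array and 23626 to 29095 per CFD diet array. Replicates of the same number shared a slide. All 11 hepatocyte markers found on the array, among them Alb and Cps1, were well above background on the 6 arrays, so the defining transcripts of liver were present. A gene is called changed at an adjusted p below 0.05 from limma fitted over all 23511 tested probes, with Benjamini-Hochberg adjustment, and a ± beside a log2 fold change is its standard error, with 3 arrays a group.

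Among the enzymes that make S-adenosylmethionine, Mat2a rose and the others were not called. The scaled signal of Mat2a was 28.3, 31.0 and 32.6 in control replicates 1 to 3, a mean of 30.6 ± 2.16 (SD, n = 3). It was 143, 127 and 147 in CFD diet replicates 1 to 3, a mean of 139 ± 10.4 (SD, n = 3). The groups lay far apart, and the arrays within each were close. The rise was 4.54-fold, 2.18 ± 0.13 on the log2 scale (95% confidence interval 1.89 to 2.48), with an adjusted p of 0.000104 by limma. Of all tested probes, 6.24% had a larger change in either direction. The difference was 2.34, 2.04 and 2.17 within slides 1 to 3. The unscaled signal was 11330 to 13100 in the controls and 51450 to 98590 in the CFD diet group, so the rise was there before any scaling. The probe, for the transcript NM_145569, lies on chromosome 6 from 72450793 to 72450852 in build mm7, the build of the array's annotation; whether it is coding or untranslated sequence was not assigned, here or for the other probes.

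Mat1a, the hepatocyte form, did not pass the test. Its scaled signal was 181, 147 and 190 in control replicates 1 to 3 and 128, 154 and 124 in CFD diet replicates 1 to 3. The ranges overlapped, because CFD diet replicate 2 lay above control replicate 2. The log2 fold change was -0.35 ± 0.16 (adjusted p by limma = 0.102), with a 95% confidence interval of -0.72 to 0.02. With this scaling alone, the arrays leave its change between a moderate fall and none. The sign depended on the scaling. Scaled to the array median, Mat1a was called lower at -0.55 (adjusted p = 0.0419), and after quantile normalization it was 0.14 (adjusted p = 0.481). Before scaling, the signals were 79480, 53620 and 76540 in the controls and 79090, 62040 and 83390 in the CFD diet group, which overlap. The probe, for NM_133653, lies on chromosome 14 from 38550316 to 38550375.

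Mat2b has 3 probes. For probe 1, the brightest, the scaled signal was 5.86, 5.55 and 5.62 in the controls and 6.28, 6.58 and 6.23 in the CFD diet group. All CFD diet values were the higher, but the difference was small, 0.16 ± 0.11 (adjusted p by limma = 0.247). Probe 2 gave 0.02 ± 0.14 (adjusted p by limma = 0.934), with overlapping groups. Probe 3, for the cDNA clone AK038303, was well above background on 1 of the 6 arrays, CFD diet replicate 1, and was not tested. Quantile normalization called probe 1 higher, at 0.36 (adjusted p by limma = 0.0275). The probes lie on chromosome 11 at 40622571 to 40622630, 40627637 to 40628088 and 40628861 to 40628920.

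The change of Mat2a against Mat1a can be read within each array, where scaling cancels. The log2 signal of Mat2a minus that of Mat1a was -2.68, -2.24 and -2.55 in control replicates 1 to 3, a mean of -2.49 ± 0.22 (SD, n = 3). It was 0.16, -0.27 and 0.24 in CFD diet replicates 1 to 3, a mean of 0.04 ± 0.28 (SD, n = 3). The groups did not overlap. The shift between groups was 2.53 on the log2 scale, or 5.79-fold, and 2.53 also with normexp background correction. Since the probes differ in how brightly they report, the shift is readable, while a value near 0 does not mean equal amounts of the transcripts. No p is given, as the pair was chosen with earlier results known.

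**Figure D1:**
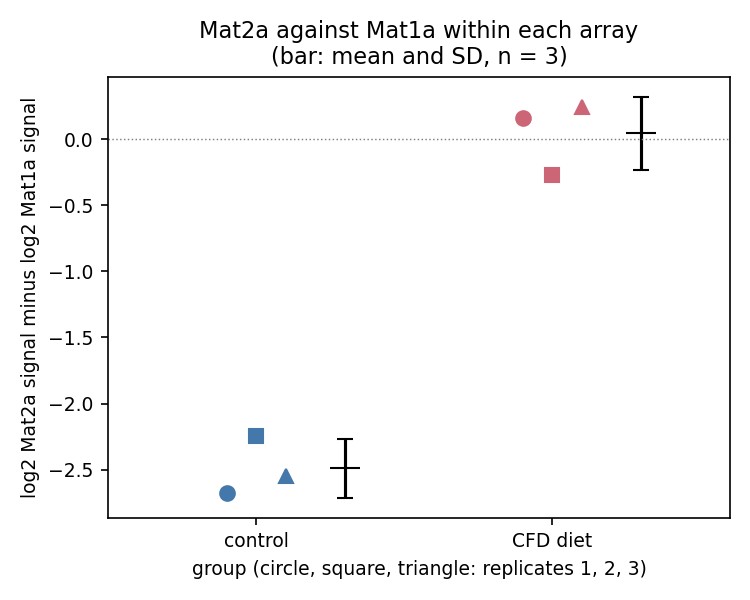
Log2 signal of the Mat2a probe minus that of the Mat1a probe (y axis) on each of the 3 control and 3 CFD diet arrays (x axis); bars show the mean and SD. The 3 controls lie between -2.68 and -2.24 and the 3 CFD diet arrays between -0.27 and 0.24.

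Of the methyltransferases, Gnmt, Gamt and Nnmt were lower in the CFD diet group and Pemt was not called. Gnmt, the glycine methyltransferase, had scaled signals of 354, 366 and 398 in control replicates 1 to 3 and 97.5, 237 and 116 in CFD diet replicates 1 to 3. Every CFD diet array was below every control, and replicate 2 was much the least reduced. The level was 37.3% of the control level, a log2 fold change of -1.42 ± 0.32 (adjusted p by limma = 0.0104; 95% confidence interval -2.18 to -0.66). Within slides 1 to 3 it differed by -1.86, -0.63 and -1.78. Its SD on the log2 scale was 0.09 in the controls and 0.68 in the CFD diet group. After quantile normalization the change was -0.85 (adjusted p by limma = 0.0163). The probe, for NM_010321, lies on chromosome 17 between 44855132 and 44855280.

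Gamt, which methylates guanidinoacetate to creatine, had the largest fall of the 8 genes. Its scaled signal was 61.5, 73.7 and 71.3 in control replicates 1 to 3 and 10.6, 32.4 and 15.7 in CFD diet replicates 1 to 3. The CFD diet arrays were all lower, with replicate 2 again the nearest to the controls. The level was 25.5% of control, -1.97 ± 0.38 on the log2 scale (adjusted p by limma = 0.00608), and 7.91% of all tested probes had a larger change. Within slides 1 to 3 it differed by -2.54, -1.19 and -2.18. The probe, for NM_010255 on chromosome 10 from 80040533 to 80040593, is printed 10 times on each array. Its 10 spots had a coefficient of variation of 1.90% to 3.67%.

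Nnmt, the nicotinamide methyltransferase, had scaled signals of 51.7, 54.8 and 45.8 in control replicates 1 to 3 and 34.6, 40.4 and 22.7 in CFD diet replicates 1 to 3. The scaled groups did not overlap, with CFD diet replicate 3 the lowest. The log2 fold change was -0.68 ± 0.23, or 62.6% of control, and passed narrowly (adjusted p by limma = 0.0427). Before scaling the groups overlapped, at 18420 to 22690 in the controls and 15210 to 21400 in the CFD diet group. The call ended without control replicate 1 (adjusted p = 0.0999), 2 (0.112) or 3 (0.0745), and without CFD diet replicate 1 (0.0674) or 3 (0.0806). It held only without CFD diet replicate 2 (0.0192), and after quantile normalization the value was -0.25 (adjusted p = 0.336). The probe, for NM_010924, lies on chromosome 9 from 48564184 to 48564243.

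Pemt, the liver's own route to phosphatidylcholine, was not called by either of its probes. The scaled signal of probe 1 was 41.7, 34.3 and 38.2 in control replicates 1 to 3 and 34.4, 44.8 and 38.9 in CFD diet replicates 1 to 3. That of probe 2 was 34.4, 30.6 and 34.3 in the controls and 27.4, 40.0 and 34.9 in the CFD diet group. In both, CFD diet replicate 1 was below the control mean and replicate 2 above it, and the groups overlapped. The log2 fold changes were 0.04 ± 0.15 (95% confidence interval -0.31 to 0.40) and 0.03 ± 0.17 (-0.37 to 0.43), with adjusted p by limma of 0.822 and 0.897. Quantile normalization called both higher, at 0.46 and 0.45 (adjusted p by limma = 0.0184 and 0.0241). The probes, for NM_008819, lie on chromosome 11 at 60052334 to 60052393 and, with a gap, 60055705 to 60058423.

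Ahcy, the hydrolase of S-adenosylhomocysteine, fell by all 3 of its probes. Probe 1 had scaled signals of 183, 201 and 220 in control replicates 1 to 3 and 72.3, 120 and 70.5 in CFD diet replicates 1 to 3. Probe 2 had 94.95, 89.7 and 99.4 in the controls and 35.5, 55.5 and 31.1 in the CFD diet group. Probe 3 had 17.8, 19.9 and 22.5 against 6.79, 10.1 and 6.23. In all 3 the groups were separate and CFD diet replicate 2 had the highest scaled signal of its group. Before scaling, probe 1 was 44640, 48560 and 47250 in CFD diet replicates 1 to 3. The log2 fold changes were -1.24 ± 0.23, -1.26 ± 0.22 and -1.40 ± 0.21, with adjusted p by limma of 0.00493, 0.00435 and 0.00249, so the 3 probes differed by less than their errors. Probe 1 was at 42.4% of control. After quantile normalization the changes were -0.76, -0.78 and -1.14, all still called. The probes lie on chromosome 2 at 154800939 to 154800998, 154800700 to 154800765 and 154806443 to 154806502. Ahcy has processed copies in the mouse genome, and whether these add to any probe was not tested.

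**Figure D2:**
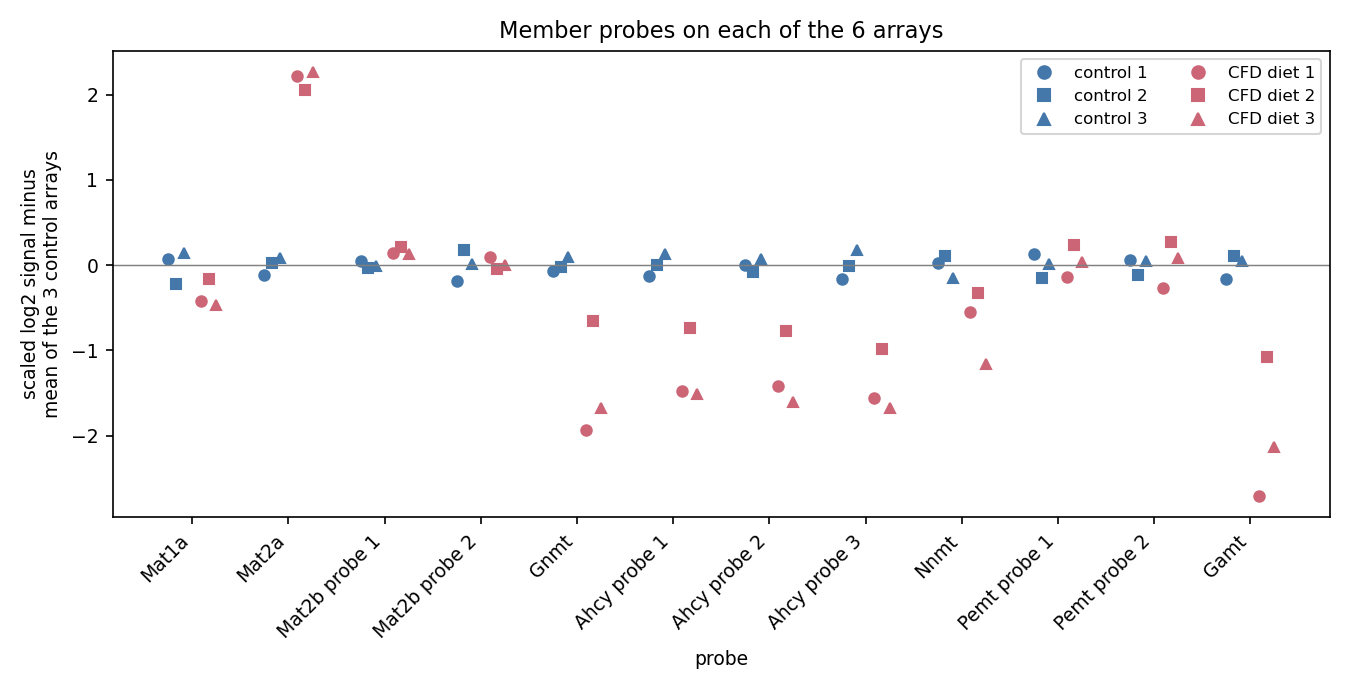
Scaled log2 signal of each of the 12 tested probes (x axis) minus the mean of the 3 control arrays (y axis), with circles, squares and triangles for replicates 1, 2 and 3. Mat2a stands above the controls on all 3 CFD diet arrays, while Gnmt, Ahcy, Nnmt and Gamt stand below them, with CFD diet replicate 2 the nearest to the controls in each of these 4 genes.

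Over the 12 tested probes, 1 was called higher (Mat2a), 6 lower (Gnmt, the 3 of Ahcy, Nnmt and Gamt) and 5 were not called (Mat1a, 2 of Mat2b and 2 of Pemt). The array as a whole changed widely. Of all tested probes, 49.7% were called, 22.1% higher and 27.6% lower, so 7 of 12 is not far from the background. The median log2 fold change was -0.51 for the 12 probes and -0.12 for all tested probes. Overlap of the groups was counted over the 23421 tested probes with a value on all 6 arrays. The scaled groups did not overlap for 8 of the 12 probes, against 61.6% of those probes, and the unscaled groups for 8 of the 12, against 42.7%. On the unscaled signals Mat2a, Mat2b probe 1 and Pemt probe 2 lay wholly above the controls, as did 31.3% of those probes, and Gnmt, Ahcy and Gamt wholly below them, as did 11.4%. The probes of Ahcy share a gene and are not independent.

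How far a fall is read depends on what the array is scaled to. With the array median as the reference, the median of all tested probes moved from -0.12 to -0.33 and 54.7% of tested probes were called, split into 3989 higher (17%) and 8872 lower (37.7%), against 5202 and 6482 in the main scaling. Mat2a stayed higher and Gnmt, Ahcy and Gamt stayed lower, all called, with the array median, quantile normalization, normexp and the deposited value table. Mat1a and both bright probes of Mat2b and of Pemt changed sign between these scalings. Nnmt was below the controls in all 4 but not called after quantile normalization. Quantile normalization called 51.9% of tested probes, 23.6% higher and 28.3% lower, and of the 12 member probes 4 higher and 5 lower.

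**Figure D3:**
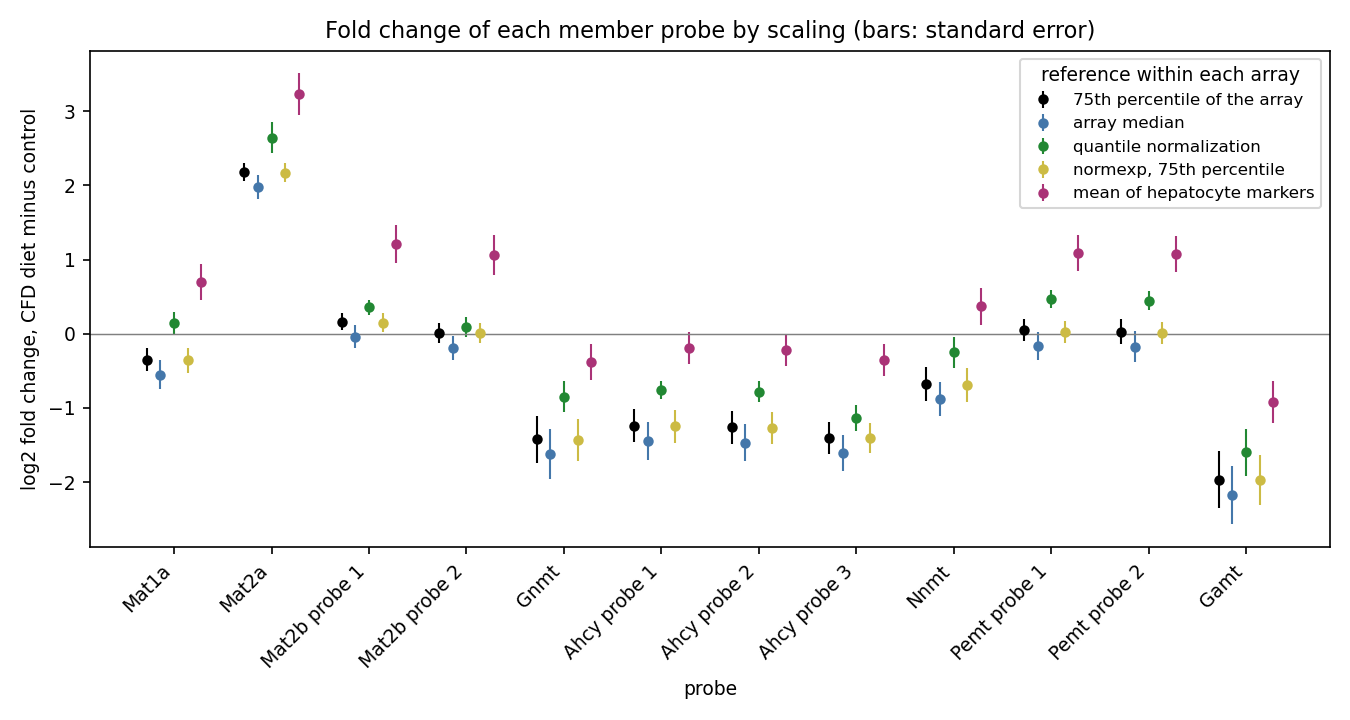
Log2 fold change, CFD diet minus control, of the 12 tested probes (x axis) under 5 references within each array, with standard errors as bars. Mat2a lies above 0 and Gamt below 0 in all 5, while Mat1a lies between -0.55 and 0.69.

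In bulk liver, fewer cells of a type and less RNA per cell cannot be told apart. The cell type markers moved with the diet. Over all 15929 tested genes, 23.7% were called higher and 27.3% lower. Of 11 tested hepatocyte markers, 9 fell and 0 rose, led by Tdo2 (-1.77 ± 0.31, adjusted p by limma = 0.00452), with a median of -1.03 against -0.11 for all genes. Their summed scaled signal was 2469, 3000 and 2915 in control replicates 1 to 3 and 1338, 2205 and 1342 in CFD diet replicates 1 to 3. By scaled signal CFD diet replicate 2 was thus the nearest to the controls, as for Gnmt, Ahcy, Nnmt and Gamt. Its 75th percentile, the divisor, was 404.1, against 617.8 and 670.2 on CFD diet replicates 1 and 3. Before scaling, replicate 2 was still the highest CFD diet array for Gnmt and Gamt. For Nnmt it was replicate 1 (21400, against 16310 and 15210), and Ahcy was nearly level, with probe 1 at 44640, 48560 and 47250. All 10 proliferation markers rose (summed scaled signal 2.09 to 2.51 in the controls and 8.22 to 12.0 in the CFD diet group). All 10 stellate cell and myofibroblast markers rose (15.01 to 17.4 and 50.5 to 69.3), as did 8 of 9 macrophage markers, with Clec4f the exception (150.8 to 215.4 and 404 to 551.4), all 6 cholangiocyte markers (5.75 to 8.91 and 88.5 to 122.9) and 3 of 3 tested neutrophil markers (1.31 to 2.23 and 18.7 to 24.7). A summed signal follows its brightest genes. Most of the cholangiocyte sum was Spp1, at 84.4, 115.1 and 116.7 in CFD diet replicates 1 to 3. Most of the neutrophil sum was S100a9, at 18.75, 17.1 and 22.6 on the same arrays. Both genes are named after their values were seen. Of the sinusoidal endothelial markers 1 of 6 rose and 4 fell (37.4 to 41.3 and 22.7 to 30.1). Of 5 tested lymphocyte markers 0 rose and 2 fell (0.43 to 0.69 and 0.35 to 0.43), which is not far from the share called lower over all genes. The neutrophil sum also includes Mpo and the lymphocyte sum Ncr1, which are on the array but were not tested. The lymphocyte count was 4 lower with the array median and 4 with quantile normalization, and the hepatocyte count was 6 lower with quantile normalization. Among markers that were measured in both groups, Clec4f changed by -0.73 ± 0.21, Kdr by -1.14 ± 0.13, Lyve1 by 1.74 ± 0.18 and S100a8 by 3.85 ± 0.21 (adjusted p by limma = 0.0278, 0.00101, 0.000565 and 9.49e-05). Clec4f, a marker of resident Kupffer cells, was no longer called after quantile normalization (-0.39, adjusted p by limma = 0.0681). Gpnmb was above background on 2 control arrays, and Bub1 and Epcam on 1, with all CFD diet arrays above it. No list had a marker that was below background on all 6 arrays, although Lox, Aurkb and Cftr were above it on 0 control arrays. The part of these shifts in the changes of the 8 genes was not tested.

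Relative to the mean log2 signal of the 11 hepatocyte markers, a reference added after the values were seen, every log2 fold change is higher by 1.04. On that reference Mat2a differed by 3.23 and Gamt by -0.93, both still called (adjusted p by limma = 3.21e-05 and 0.0176). Gnmt (-0.38, adjusted p by limma = 0.187) and the 3 Ahcy probes (-0.19 to -0.36, adjusted p 0.157 to 0.424) were no longer called. Mat1a was then called higher (0.69, adjusted p by limma = 0.0299), as were 2 Mat2b probes (1.21 and 1.06) and both Pemt probes (1.09 and 1.07). This reference moved the median of all tested probes to 0.92, so it describes levels relative to hepatocyte transcripts and not relative to total RNA. The 11 markers did not move alike. They ran from -1.77 (Tdo2) to -0.49 (Alb, adjusted p by limma = 0.162, value named after it was seen). The calls on this reference therefore depend on which markers are averaged, and other marker sets were not tried.

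Around the 8 genes, 78 genes of connected pathways were listed, 75 of them tested, with 1 probe a gene and adjustment over all 15929 genes. Of these 75, 9 rose and 44 fell, where 51.1% of all tested genes were called, 23.7% higher and 27.3% lower. The median was -0.62 against -0.11 for all genes. Hepatocyte markers fell as well, 9 of 11 with a median of -1.035, so a fall is not particular to these pathways. Whether the lists fell beyond hepatocyte transcripts at large was not tested. Scaled to the array median the counts were 5 and 48, and after quantile normalization 11 and 35. Gene counts in the next paragraphs are from the 75th percentile scaling.

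Methyltransferases other than the members, most of small molecules and some of proteins, fell, 9 of 11 tested with 0 rising. Inmt, which methylates indolamines, had scaled signals of 321, 367 and 398 in control replicates 1 to 3 and 14.9, 157 and 9.31 in CFD diet replicates 1 to 3, a change of -3.69 ± 0.98 (adjusted p by limma = 0.0195). Mettl7a1, a methyltransferase-like protein of lipid droplets, changed by -1.92 ± 0.17 (adjusted p by limma = 0.000398). Quantile normalization called 2 genes of this list higher. On the glycine and sarcosine side of Gnmt, 7 of 8 tested genes fell and 0 rose. Pipox and Sardh, which oxidize the sarcosine that Gnmt forms, changed by -3.16 ± 0.63 and -1.70 ± 0.29 (adjusted p by limma = 0.00684 and 0.00393).

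Homocysteine, the product of Ahcy, can be methylated again or drawn off to cysteine. Of 5 remethylation genes, 3 rose and 1 fell. Mtr, the folate-dependent methionine synthase, rose by 0.91 ± 0.18 (adjusted p by limma = 0.00710), and Bhmt2, of the betaine homocysteine methyltransferase family, changed by -0.72 ± 0.16 (adjusted p = 0.00913). Scaled to the array median, 1 rose and 2 fell. After quantile normalization 2 rose and 0 fell, and Bhmt2 was not called (-0.27, adjusted p by limma = 0.0907). All 6 transsulfuration and cysteine genes fell (4 after quantile normalization), among them Cbs, the first enzyme of the route, by -1.28 ± 0.20 and Csad, of taurine synthesis, by -2.51 ± 0.55 (adjusted p by limma = 0.00309 and 0.00931). Among the AHCY-like proteins and adenosine enzymes 3 of 4 fell, Adk, the adenosine kinase, by -0.72 ± 0.18 (adjusted p by limma = 0.0155), but 1 of 4 after quantile normalization and 1 of 4 with the slide as a block. Adk itself was not called after quantile normalization (-0.27, adjusted p by limma = 0.0758). Slc25a26, the mitochondrial S-adenosylmethionine carrier, did not pass (-0.21 ± 0.12).

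Of 4 tested creatine genes besides Gamt, 2 rose and 0 fell. Slc6a8, the creatine uptake transporter, had scaled signals of 0.80, 0.81 and 0.79 in control replicates 1 to 3 and 3.33, 3.03 and 4.34 in CFD diet replicates 1 to 3, a rise of 2.14 ± 0.16 (adjusted p by limma = 0.000198). The other was Ckb, the brain-type creatine kinase, named after its value was seen, at 1.69 ± 0.16. Gatm, which makes the guanidinoacetate that Gamt methylates, did not pass (-0.05 ± 0.15) and was likewise named after its value was seen.

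In the nicotinamide and NAD list, around Nnmt, 7 of 10 genes fell and 0 rose. Aox3 and Aox1, aldehyde oxidases that act on methylnicotinamide, changed by -3.12 ± 0.65 and -2.42 ± 0.44 (adjusted p by limma = 0.00813 and 0.00502). Of 8 phospholipid synthesis genes listed around Pemt, 5 fell and 0 rose. The largest falls were of Chpt1, a cholinephosphotransferase of phosphatidylcholine synthesis, at -2.07 ± 0.33 and Etnk1, an ethanolamine kinase, at -1.42 ± 0.28 (adjusted p by limma = 0.00309 and 0.00637). Quantile normalization left 3 of these lower.

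Polyamine synthesis also draws on S-adenosylmethionine, and of its 14 genes with methylthioadenosine salvage 4 rose and 4 fell. Both counts are near the shares over all tested genes, 23.7% higher and 27.3% lower, and do not set this list apart. Odc1, ornithine decarboxylase, rose by 1.46 ± 0.11 and Sat1, the spermidine acetyltransferase, by 1.23 ± 0.11 (adjusted p by limma = 0.000234 and 0.000319). Oaz1, an antizyme that inhibits Odc1 protein, changed by -1.17 ± 0.23 and Apip, of methionine salvage, by -0.89 ± 0.21 (adjusted p by limma = 0.00615 and 0.0130). Scaled to the array median, 2 rose and 5 fell. Among RNA-binding proteins and Mettl16, which methylates and so controls the Mat2a transcript, 2 of 4 fell and 0 rose, led by Hnrnpu at -0.97 ± 0.19 (adjusted p by limma = 0.00662). Mettl16 (0.38 ± 0.14, adjusted p by limma = 0.0584) was not called; it is named here because of its role, after its value was seen. Quantile normalization called it higher, at 0.50 (adjusted p by limma = 0.0268).

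**Figure D4:**
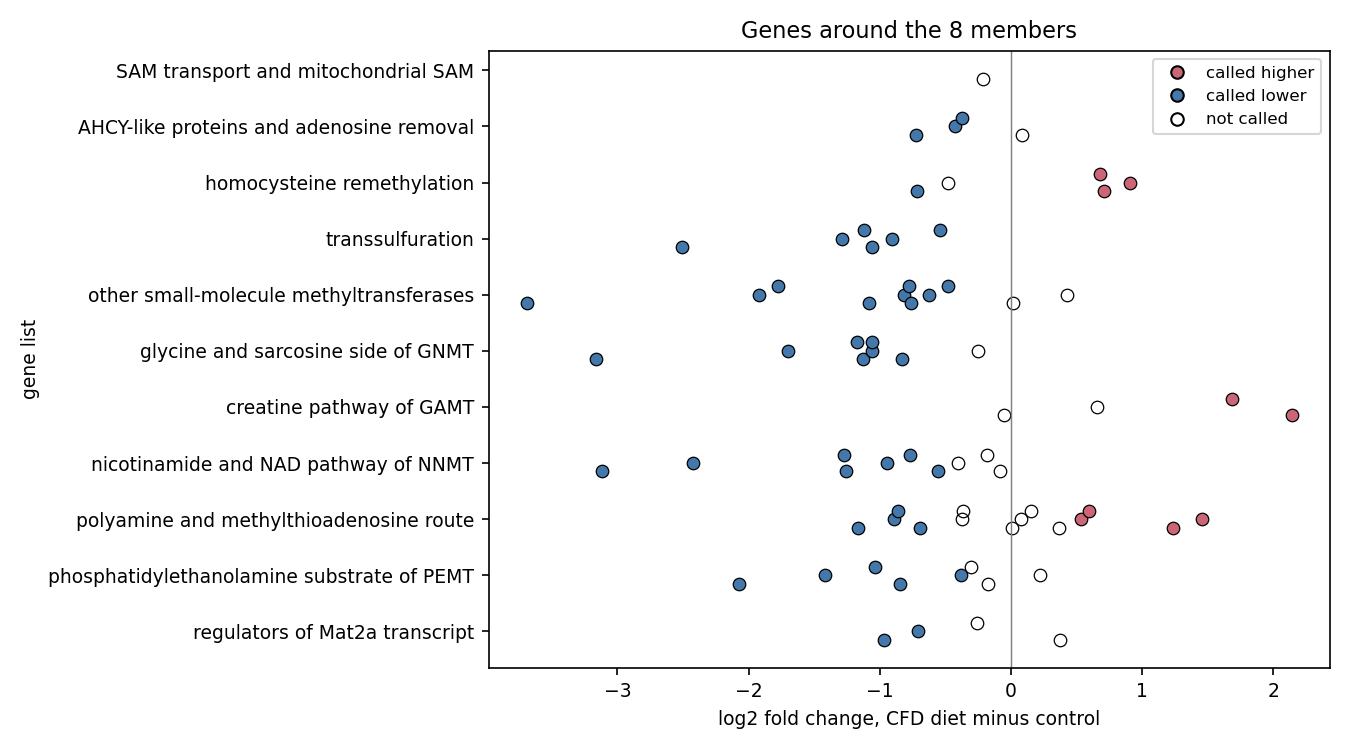
Log2 fold change, CFD diet minus control (x axis), of the 75 tested genes of 11 lists (y axis); filled points were called at an adjusted p below 0.05. Most called points lie below 0 (44 of 53), and the 2 called creatine genes lie above it.

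Genes whose profiles over the 6 arrays were most like those of 4 members were found by the root mean square difference of the log2 values, each profile minus its own mean, over 15929 genes. The 6 arrays include both groups, so a near gene has a fold change like that of its member by construction. Its call or lack of one is therefore no separate result. Nearest to Mat2a were Tmem237 (0.06), Slc20a1 (0.06) and 1700007K13Rik (0.08). Nearest to Mat1a were Maged1, Egln3 and Ei24 (0.04 each), none of them called. Nearest to Gnmt were 2 probes without a gene symbol and Hsd11b1 (0.07 each), a steroid dehydrogenase of liver, with a change of -1.54 ± 0.31 (adjusted p by limma = 0.00685). Nearest to Nnmt were Adam6b (0.06), a transcript without a gene symbol (0.07) and Dyrk1b (0.08).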

How the data were processed

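The members and gene lists were chosen with earlier results of these data known. The deposited scanner files hold intensity values per spot, background-subtracted by Agilent Feature Extraction 10.5.1.1, per the file headers; version 10.7 is given in the submitters' processing notes. The deposited series value table holds intensity with each 75th percentile near 1000 (999.5 to 1000). Its columns have the ranks of other replicates of their own group in the scanner files, and their medians were 61.49 to 80.59. Replicate numbers follow the scanner files, and that table was an alternative only. Which numbering is intended is unknown, and 0 columns were left unmapped.

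Control and outlier spots were left out, log2 signals were centred on each array's 75th percentile over spots that are not controls, and repeated spots were averaged per probe. Testing required a share of at least 0.5 of a probe's spots to be well above background on all 3 arrays of a group. The test was lmFit and eBayes of limma 3.58.1 (R 4.3.3), after the code was tested on simulated data. For pathway and marker lists, a gene was its tested probe with the highest mean, named through a RefSeq table of GRCm38.p6 (22951 of 41174 probes by accession). No spot was saturated, and 3 arrays a group limit the precision. Per the file headers, same-numbered replicates shared a slide. The deviations of these 3 pairs from their group means correlated at 0.10, -0.08 and 0.00 over probes, and those of other pairs at -0.186 to 0.155. The same-slide pairs thus did not stand out. Since they are also the same-numbered pairs, this cannot tell a shared slide from another pairing. The text names every member probe, from each pathway list the called gene with the largest change each way (the first 2 where at least 6 genes were tested), from each marker list the called gene with the largest change each way, and the 3 genes nearest in profile to Mat1a, Mat2a, Gnmt and Nnmt; others are marked as named after their values were seen, and 1 marker gene that the rule picks is not reported here. Alternatives were other scalings, background correction, filters, the slide as a block, trend and robust settings, 1 probe a gene, the value table and leaving out each array.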

Additional observations from a re-analysis of the deposited data

How the results depend on the processing

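Mat2a stayed called higher and Gamt called lower under every alternative run, and Gnmt and Ahcy stayed called lower under all but the scaling to hepatocyte markers. With the slide as a replicate block no call of a member changed (Mat2a 2.18, adjusted p by limma = 0.00188; Nnmt adjusted p = 0.0310). Scaled to the array median, Mat1a was called at -0.55. After quantile normalization Mat2b probe 1 (0.36) and the Pemt probes (0.46 and 0.45) were called, so 4 member probes were higher, and Nnmt (-0.25) was not called. Nnmt also lost its call without the filter on dim probes (-0.68, adjusted p by limma = 0.129), which tests 41174 probes. Leaving out 1 array at a time, Nnmt ranged from -0.85 to -0.44. Probes called lower over the array ranged from 4157 (without control replicate 3) to 7037 and were 4297 without CFD diet replicate 3, and 3661 without the filter on dim probes. Centring on the hepatocyte markers, added after the values were seen, raised every value by 1.04. It turned Mat1a to 0.69 and Nnmt to 0.37, ended the calls of Gnmt (-0.38) and Ahcy (-0.19, -0.22 and -0.36), and called Mat2b (1.21 and 1.06) and Pemt (1.09 and 1.07). It left 6 member probes higher and 1 lower, and 15154 and 704 over the array. Mat1a and Mat2a have 1 probe each, so their difference could not be taken with other probes. Other signal limits are those of 3 arrays a group.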
